A study of Homo sapiens with 6 samples.

Results

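S100A2, S100A3, S100A4, S100A6, S100A10, S100A11, S100A13, S100A14 and S100A16 are 9 genes of the S100 family of small calcium-binding proteins, chosen by symbol from the 46427 genes for which values were deposited. All 9 were among the 16966 genes that passed the filter on low counts. They were measured in MDA-MB-231, a cell line from a metastatic human breast cancer whose genotype is labelled wild type, in 3 cell preparations transfected with control-siRNA and 3 transfected with TAZ-siRNA, an siRNA that targets WWTR1, which encodes TAZ. TAZ is a transcriptional coactivator of the Hippo pathway. The study asked if its loss alters breast cancer cell migration by way of epithelial-to-mesenchymal transition or the actin cytoskeleton. Migration was also measured in another breast cancer line, whereas the RNA sequencing was of MDA-MB-231 alone. The comparison given here is the response of the S100 mRNAs to TAZ knockdown.

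S100 proteins carry a pair of EF-hands, helix-loop-helix motifs that bind calcium, and most of them work as dimers that expose a hydrophobic face to their partners once calcium is bound. Within cells they bind annexins, myosin and other cytoskeletal proteins, and some are released and bind receptors such as RAGE or TLR4. Several members, S100A4 above all, have long been studied for their association with migration and metastasis of breast cancer cells. Most S100 genes lie side by side on the long arm of chromosome 1. In GRCh38 the 9 genes lay between positions 151982915 and 153634361 of that chromosome, a span of 1651.447 kb, and all were transcribed from the minus strand.

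TAZ itself does not bind DNA and is known to act through TEAD factors, often at enhancers shared with AP-1. The 250 bases upstream of 13 RefSeq transcription starts of the 9 genes, those for which the promoter sequence was at hand, were searched on both strands for GGAATG, the core of the TEAD motif, and for TGANTCA, the AP-1 motif. These are the letters searched, and a match describes the window and not a bound site. The TEAD core was in 1 of the 13 windows, against 11.9% of 35116 RefSeq promoter windows of this length, and the AP-1 motif was in 2, against 6.57%. The windows with a match are shown, together with that of the other S100A16 start, because S100A16 and S100A2 were the members whose mRNA rose in response to TAZ knockdown and S100A3 is the only other member with a match. All are GRCh38.p14 sequence from RefSeq, written 5′ to 3′ on the minus strand and ending at the base before the start, with the motif in capitals.
S100A16 distal start, chr1:153613138-153613387: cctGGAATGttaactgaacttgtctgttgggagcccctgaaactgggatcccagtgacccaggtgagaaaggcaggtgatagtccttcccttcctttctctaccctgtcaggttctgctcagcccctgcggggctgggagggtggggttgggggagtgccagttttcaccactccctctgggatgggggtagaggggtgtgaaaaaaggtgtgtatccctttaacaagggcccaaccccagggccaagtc
S100A16 proximal start, chr1:153609356-153609605: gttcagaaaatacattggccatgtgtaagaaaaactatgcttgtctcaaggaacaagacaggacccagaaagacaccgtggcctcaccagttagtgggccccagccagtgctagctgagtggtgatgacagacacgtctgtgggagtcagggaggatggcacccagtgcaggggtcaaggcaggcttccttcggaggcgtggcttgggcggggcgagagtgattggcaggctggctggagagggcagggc
S100A2, chr1:153565845-153566094: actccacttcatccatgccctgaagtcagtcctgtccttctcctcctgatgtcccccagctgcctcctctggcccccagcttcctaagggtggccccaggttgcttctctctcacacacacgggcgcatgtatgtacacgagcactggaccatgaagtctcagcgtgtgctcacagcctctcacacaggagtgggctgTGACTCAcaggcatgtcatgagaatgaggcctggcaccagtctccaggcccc
S100A3, chr1:153549259-153549508: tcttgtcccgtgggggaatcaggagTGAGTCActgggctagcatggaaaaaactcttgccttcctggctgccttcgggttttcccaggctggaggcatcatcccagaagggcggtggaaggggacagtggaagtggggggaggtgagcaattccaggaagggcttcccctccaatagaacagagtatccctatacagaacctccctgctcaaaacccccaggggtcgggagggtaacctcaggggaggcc
The TEAD core began at position -247 relative to the distal start of S100A16. The AP-1 motif began at position -52 relative to the S100A2 start at 153565844 and at position -225 relative to the start of S100A3. The window of the other S100A2 start, at 153563887, held neither set of letters and is not shown. The windows of S100A4, S100A6, S100A10, S100A11, S100A13 and S100A14 held neither set of letters, that of S100A14 being upstream of NM_020672, a transcript listed at 0 in all 6 libraries. Other annotated starts, including that of the S100A14 transcript with signal, were not searched.

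The libraries held 48307548 to 71749634 estimated counts each. WWTR1 fell from 191 ± 1.46 CPM (counts after scaling by library total and TMM factor, SD, n = 3) to 16.5 ± 1.21 CPM, 8.64% of the control level, so that the targeted mRNA followed the labels in every library. The epithelial keratins KRT8 and KRT18 and the mesenchymal marker VIM were abundant, at 585 to 3922 TPM (a level scaled for transcript length and to a common total per library). The keratin KRT19 was at 98.3 to 100 TPM with control-siRNA and 125 to 144 TPM with TAZ-siRNA. In contrast, the epithelial markers EPCAM and CDH1 were at most 2.25 TPM and the hormone receptor genes ESR1 and PGR at most 0.0295 TPM. The receptor gene ERBB2 was at 19.7 to 21.7 TPM with control-siRNA and 20.6 to 30.2 TPM with TAZ-siRNA. Of 11 markers of other cell types, 6 were at 0 in all 6 libraries, among them PTPRC and CD3E, and their summed level was 121 to 126 TPM with control-siRNA and 98.1 to 106 TPM with TAZ-siRNA, mostly from CD68 and KRT10. TAZ-siRNA replicate 3 stood apart from the others of its group, with a chi-square of 30.3 and 41.1 per degree of freedom against them, compared with 11.7 between the other two. Control-siRNA replicate 3 likewise differed more from its group, at 21.95 and 19.9 against 6.79. The results that rest on 1 library are given with and without it.

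The 9 genes covered levels from among the most abundant mRNAs of the cell to the edge of detection. S100A6 was the highest in TPM, at 2298 ± 24.9 (SD, n = 3) with control-siRNA and 2654 ± 83.8 with TAZ-siRNA, and ranked between 41 and 60 among all genes of a library. S100A10 followed at 1072 ± 6.43 and 1222 ± 43.1 TPM, and S100A11 at 607 ± 4.51 and 669 ± 19.9 TPM. S100A16 stood at 331 ± 14.2 and 415 ± 11.6 TPM, and S100A13 at 147 ± 12.2 and 158 ± 8.83 TPM.

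The other 4 members were expressed at a much lower level. S100A4 was at 31.8 ± 1.48 TPM with control-siRNA and 31.5 ± 2.52 TPM with TAZ-siRNA, S100A3 at 18.8 ± 1.53 and 17.6 ± 0.36 TPM, and S100A2 at 11.5 ± 0.744 and 15.1 ± 1.45 TPM. S100A14 had 7 to 15 counts per library, or 0.269 to 0.427 TPM. The order of the 9 levels was the same in all 6 libraries. Each gene lay above the next one in every library without overlap in TPM, the closest neighbours being S100A3, at 17.1 TPM or more, and S100A2, at 16.7 TPM or less. Together the 9 mRNAs summed to 4487, 4500 and 4564 TPM with control-siRNA and to 5045, 5271 and 5233 TPM with TAZ-siRNA, and S100A6, S100A10 and S100A11 made up 87.4 to 88.4% of the sum.

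**Figure D1:**
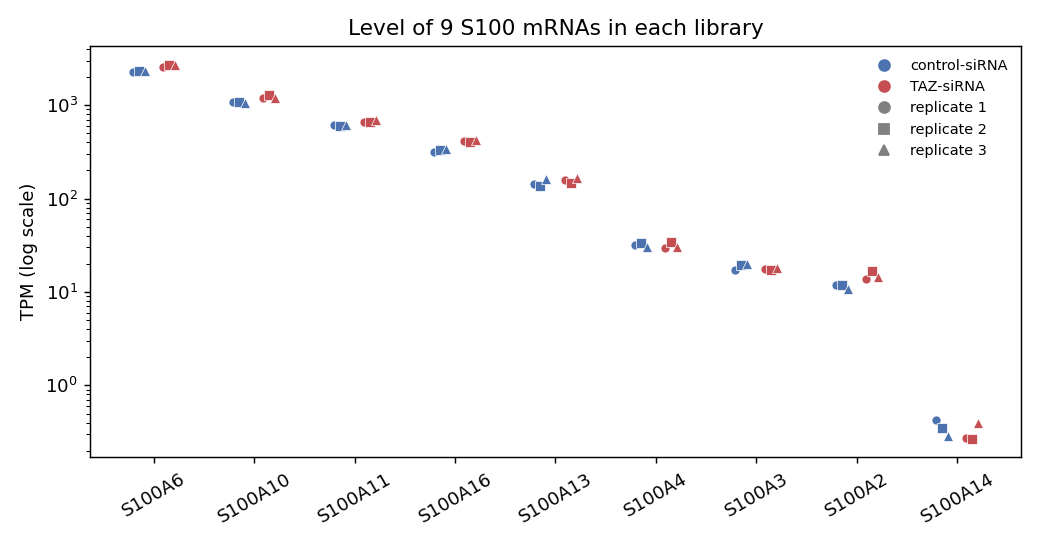
Level of each S100 mRNA in TPM (log axis) in the 3 control-siRNA (blue) and 3 TAZ-siRNA (red) libraries, with marker shapes for replicates. The order from S100A6, above 2275 TPM, to S100A14, below 0.427 TPM, was the same in every library.

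In response to TAZ knockdown, S100A16 and S100A2 rose by 1.20-fold and 1.25-fold, and the other 7 members did not pass the test. Of the 9 genes, 2 were thus called at an adjusted p under 0.05 (22.2%), against 22.1% of all genes tested, and both were higher, against 11.9% of all genes called higher and 10.2% called lower. The share of members called was close to the background. Without 1 library at a time, no member was called without control-siRNA replicate 1 or 2, 1 was called without control-siRNA replicate 3, TAZ-siRNA replicate 2 or TAZ-siRNA replicate 3, and 2 were called without TAZ-siRNA replicate 1. The share of all genes called in these fits was 33.7% without TAZ-siRNA replicate 3 and 11.2 to 15.3% without any other library. The fitted log2 fold change was positive for 6 of the 9, with a median of 0.10 on the log2 scale, beside -0.01 over all genes tested. In CPM, the groups of 3 libraries did not overlap for S100A16, S100A2 and S100A10, each higher with TAZ-siRNA, whereas 39.6% of all genes tested did not overlap and 20.0% did not overlap with TAZ-siRNA higher and 19.6% with TAZ-siRNA lower. All adjusted p-values of the S100 genes and their partners are from edgeR's quasi-likelihood test and were adjusted by Benjamini and Hochberg's method for all genes tested, unless another test is named, and n is 3 libraries per group throughout.

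S100A10, S100A11 and S100A6 are the members best known as annexin partners. S100A10, which has lost the ability to bind calcium, forms a complex with annexin A2 at the plasma membrane. It was measured at 329, 326 and 339 CPM in the control-siRNA libraries and at 346, 370 and 375 CPM in the TAZ-siRNA libraries. The TAZ-siRNA libraries all lay above the control libraries. The log2 fold change was 0.13 (SE 0.055, 95% interval 0.01 to 0.26), which did not pass the test (edgeR adjusted p = 0.105).

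S100A6, or calcyclin, binds several annexins as well as the ubiquitin-ligase adaptor CACYBP. Its values were 451, 455 and 480 CPM with control-siRNA and 480, 514 and 548 CPM with TAZ-siRNA. The lowest TAZ-siRNA library and the highest control library met at the same level, so that the groups overlapped narrowly in CPM. The log2 fold change was 0.15 (SE 0.064, 95% interval 0.01 to 0.29, edgeR adjusted p = 0.109). S100A11, a partner of annexin A1, was measured at 156, 154 and 162 CPM with control-siRNA and at 158, 162 and 182 CPM with TAZ-siRNA. Only TAZ-siRNA replicate 3 was clearly above the control libraries, and the groups overlapped. Its log2 fold change was 0.09 (95% interval -0.04 to 0.22, edgeR adjusted p = 0.316), and 0.03 without that replicate.

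S100A4, also called metastasin, binds the heavy chain of nonmuscle myosin IIA and is the member most closely tied to metastasis. It was measured at 7.62, 7.87 and 7.45 CPM with control-siRNA and at 6.69, 7.75 and 7.34 CPM with TAZ-siRNA. The TAZ-siRNA libraries were on average slightly lower, 2 of them below all control libraries and 1 within the control range. The log2 fold change was -0.08 (SE 0.091, edgeR adjusted p = 0.580), and its 95% interval of -0.28 to 0.12 holds changes from 0.824-fold to 1.09-fold. With an offset for transcript length, or for GC content and length, the sign turned, to 0.052 and 0.043.

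S100A13 takes part in the release of FGF1 and IL-1 alpha, which lack a signal peptide. It was measured at 46.0, 48.9 and 51.8 CPM with control-siRNA and at 51.7, 51.8 and 53.6 CPM with TAZ-siRNA. Control-siRNA replicate 3 reached the level of the lower TAZ-siRNA libraries, so the groups overlapped. The log2 fold change was 0.10 (95% interval -0.03 to 0.22, edgeR adjusted p = 0.244). S100A13 overlaps CHTOP, which had 3236 to 4762 counts per library, and S100A1, with at most 9 counts, both on the opposite strand. The libraries were made with a stranded kit, but whether the counting used the strand is not stated. Reads of S100A13 and CHTOP may thus not have been told apart where the genes overlap, between positions 153633982 and 153634361.

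S100A16, a widely expressed member, and S100A14, an epithelial member related to it, lie next to each other. S100A16 was measured at 186, 197 and 211 CPM in the control-siRNA libraries and at 229, 226 and 257 CPM in the TAZ-siRNA libraries. Every TAZ-siRNA library was above every control library. The mean rose from 198 ± 12.6 to 237 ± 16.8 CPM (SD), a log2 fold change of 0.26 (SE 0.066, 95% interval 0.12 to 0.41, edgeR adjusted p = 0.0179). An exact two-sided permutation test of S100A16 alone gave p = 0.1, the smallest that 3 against 3 libraries allow. Leaving out 1 library at a time gave log2 fold changes of 0.21 to 0.31, and the call was lost without control-siRNA replicate 1 (edgeR adjusted p = 0.0883) or replicate 2 (edgeR adjusted p = 0.0830). Without TAZ-siRNA replicate 3 the log2 fold change was 0.21 (edgeR adjusted p = 0.0068).

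S100A14 had 15, 12 and 8 counts with control-siRNA and 10, 7 and 12 counts with TAZ-siRNA. In CPM it was at 0.225, 0.193 and 0.165 with control-siRNA and at 0.137, 0.142 and 0.215 with TAZ-siRNA. TAZ-siRNA replicates 1 and 2 were below all control libraries, whereas replicate 3 was within their range. The log2 fold change was -0.26 (edgeR adjusted p = 0.698). At this depth its 95% interval of -1.16 to 0.65 holds changes from 0.446-fold to 1.57-fold.

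S100A2 and S100A3 are better known from stratified epithelium and hair, respectively. S100A2 was measured at 5.25, 5.24 and 4.90 CPM with control-siRNA, from 350, 326 and 238 counts, and at 5.82, 6.89 and 6.62 CPM with TAZ-siRNA, from 424, 340 and 370 counts. All TAZ-siRNA libraries were above all control libraries. The mean rose from 5.13 ± 0.198 to 6.44 ± 0.562 CPM (SD), a log2 fold change of 0.32 (SE 0.103, 95% interval 0.10 to 0.55, edgeR adjusted p = 0.0448). The exact permutation test of S100A2 gave p = 0.1. Its call lay close to the threshold. Leaving out 1 library at a time gave log2 fold changes of 0.28 to 0.40, and the call held only without TAZ-siRNA replicate 1, being lost without any of the other 5 libraries (edgeR adjusted p = 0.0474 to 0.144 over the 6 fits). Without a filter on low counts the adjusted p was 0.0624.

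S100A3 was measured at 5.76, 6.57 and 7.001 CPM with control-siRNA and at 5.62, 5.58 and 6.25 CPM with TAZ-siRNA. Although 2 of the TAZ-siRNA libraries were below all control libraries, the third was within their range. The log2 fold change was -0.15 (95% interval -0.38 to 0.09, edgeR adjusted p = 0.360). S100A3 and S100A4 both overlap an uncharacterized gene, LOC101928034, that had at most 9 counts per library.

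**Figure D2:**
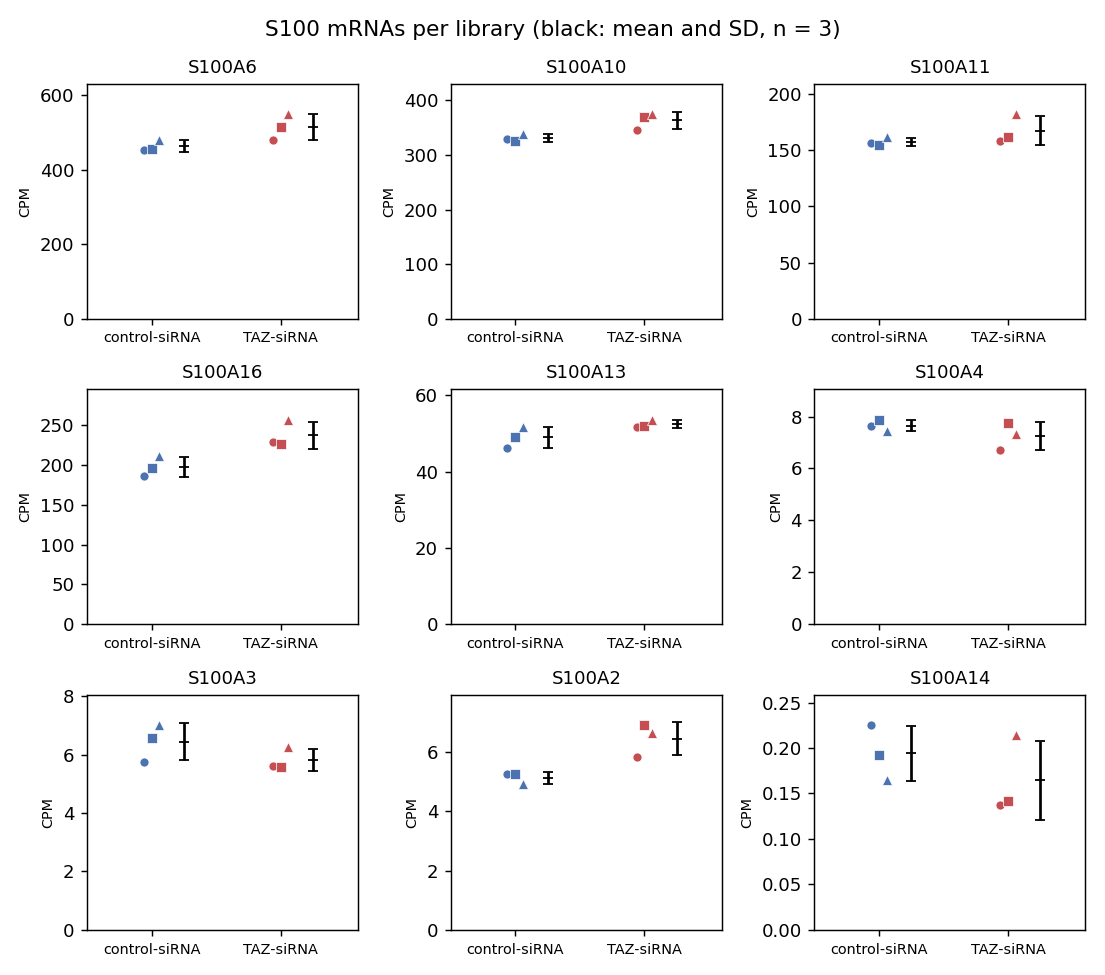
Normalized counts (CPM, axes from 0) of each S100 mRNA in every library, with circles, squares and triangles for replicates 1, 2 and 3 and the mean and SD of 3 libraries in black. The TAZ-siRNA libraries were all above the control libraries for S100A10, S100A16 and S100A2.

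The number of members called depended on the scale of the values. The 9 genes have short transcripts, with mean lengths of 437 to 1292 bases. Of the 2257 other genes tested in this length range, 2.79% were called higher, against 13.5% of 14453 longer genes, and the median log2 fold change was -0.11 in the former and 0.01 in the latter. The share of each length class called lower was not worked out. In deposited TPM, the groups did not overlap for 5 members, S100A6, S100A10, S100A11, S100A16 and S100A2, all higher with TAZ-siRNA, against 21.7% of all genes tested (35.1% in either direction). S100A6, for instance, was at 2275, 2294 and 2325 TPM with control-siRNA and at 2559, 2715 and 2689 TPM with TAZ-siRNA, without the overlap seen in CPM. S100A11 was at 612, 603 and 606 TPM and at 653, 662 and 692 TPM, again without overlap. The summed FPKM of a library, by which its TPM are scaled, was 403492, 409279 and 421295 with control-siRNA and 394688, 393691 and 406193 with TAZ-siRNA, and on log2(TPM + 1) the genes tested had a median change of 0.03.

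A fit on log2(TPM + 1) with limma called these 5 members, each higher, against 15.0% of all genes called in either direction, 1600 of them higher and 943 lower, with adjusted p-values of 0.0090 for S100A6, 0.0141 for S100A10 and 0.0384 for S100A11. With a trend for transcript length taken out of each library's counts, edgeR called 6 members, each higher, against 26.0% of all genes, 2035 of them higher and 2377 lower, the sixth being S100A13 (log2 fold change 0.22, adjusted p = 0.0094). In that fit the log2 fold change was 0.29 for S100A6, 0.26 for S100A10, 0.21 for S100A11, 0.34 for S100A16 and 0.42 for S100A2. The same 6 were called with both GC content and length taken out, against 27.4% of all genes. On log2(FPKM + 1), a scale that also divides by length, limma called S100A16 and S100A2 alone, against 16.6% of all genes, and DESeq2 called the same pair, against 23.8%. S100A16 and S100A2 were called higher under each of these 6 fits, and no member was called lower in any of them.

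**Figure D3:**
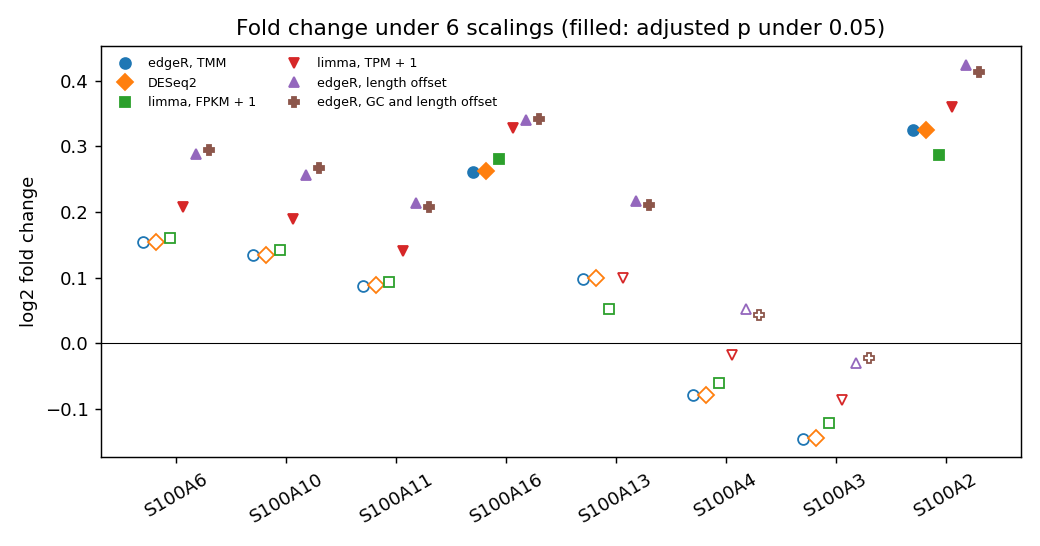
Log2 fold change of 8 members (S100A14, with few counts, is left out) under 6 fits, filled where the adjusted p was under 0.05. S100A16 and S100A2 are filled throughout, S100A6, S100A10 and S100A11 in 3 of the fits, and S100A4 changes sign with a length offset.

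The deposited transcript values gave the start sites behind these levels. S100A16 has 4 transcripts from a pair of starts 3.782 kb apart, those whose upstream sequences are shown above. Transcripts from the distal start were at 63.8, 71.7 and 72.4 FPKM (fragments per kilobase of transcript, scaled to library size) with control-siRNA and at 91.3, 86.4 and 98.1 FPKM with TAZ-siRNA. The TAZ-siRNA libraries all lay above the control libraries, with means that differed by 1.33-fold. Transcripts from the proximal start were at 63.5, 64.9 and 72.4 FPKM and at 71.8, 73.3 and 75.8 FPKM. These groups overlapped, and their means differed by 1.10-fold. The distal start held 50.9 ± 1.42% of S100A16 FPKM (SD, n = 3) with control-siRNA and 55.5 ± 1.22% with TAZ-siRNA, a description that was not tested because the split of reads between transcripts that share most of their exons is estimated.

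**Figure D4:**
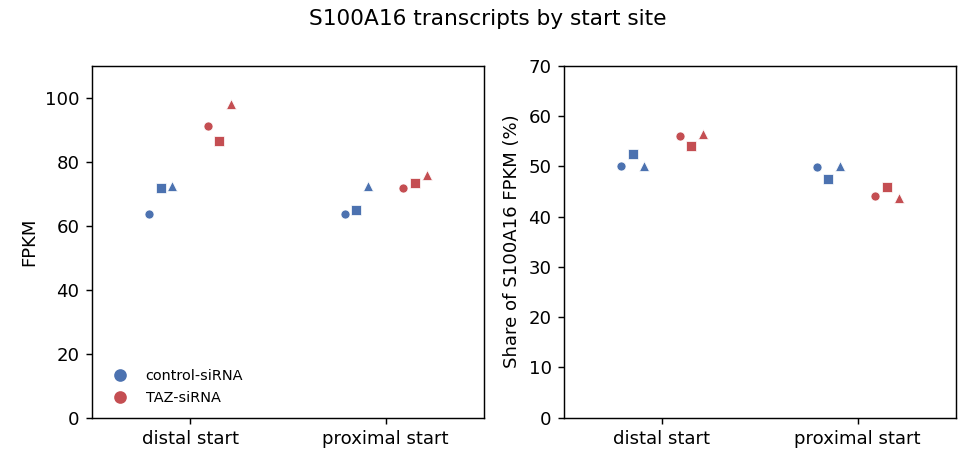
S100A16 transcripts by start site in each library, as FPKM (left) and as a share of S100A16 FPKM (right), with control-siRNA in blue and TAZ-siRNA in red. The groups were apart for the distal start, at 63.8 to 72.4 against 86.4 to 98.1 FPKM, and overlapped for the proximal start in FPKM.

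Among the other members, S100A3, S100A10 and S100A11 had 1 transcript each. S100A6 came mostly from NM_014624, with 96.1 to 96.6% of its FPKM in each library, and S100A4 from NM_002961, with 81.0 to 90.8%. For S100A2, NM_005978 held 87.0, 91.0 and 90.8% of FPKM with control-siRNA and 75.8, 78.6 and 87.4% with TAZ-siRNA. The groups overlapped, and in FPKM this transcript was at 4.22, 4.42 and 4.08 against 4.17, 5.17 and 5.18. NM_001366407, an S100A2 transcript from the same start, was at 0.263, 0.241 and 0.162 FPKM with control-siRNA and at 1.26, 0.614 and 0.653 FPKM with TAZ-siRNA, higher in all 3 TAZ-siRNA libraries. NM_001366406, the remaining S100A2 transcript, was at 0.368, 0.196 and 0.249 FPKM with control-siRNA and at 0.0757, 0.796 and 0.0964 FPKM with TAZ-siRNA. The estimated split of S100A2 thus varied widely between TAZ-siRNA libraries at these low levels, and it was not tested. S100A13 had 12 transcripts whose shares varied widely between replicates, that of NM_001024211 from 0.418 to 40.7%, so single transcripts of this gene could not be compared. All signal of S100A14 was in a single predicted transcript, XM_017001875.

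Apart from S100P, at 50.9 to 58.2 TPM with control-siRNA and 57.1 to 82.7 TPM with TAZ-siRNA, the other S100 genes had few counts or none. Of 12 other S100 genes, 7 had 0 counts in all 6 libraries, including S100A8 and S100A9, the calprotectin subunits of myeloid cells, and S100A7, S100A12 and S100G. S100A1, S100B and S100Z were below the filter, with at most 9, 4 and 6 counts. The remaining 2 were tested and neither passed. S100P, which like other members can act through RAGE, was at 10.9, 11.4 and 12.97 CPM with control-siRNA and at 11.9, 11.7 and 18.2 CPM with TAZ-siRNA. Only TAZ-siRNA replicate 3 was above the control range, and the log2 fold change of 0.24 (edgeR adjusted p = 0.333) was 0.01 without it. S100A5 was at 1.26 to 1.38 CPM with control-siRNA and 0.912 to 1.27 CPM with TAZ-siRNA (log2 fold change -0.22, edgeR adjusted p = 0.454). Of the 2, the counts at an unadjusted p under 0.05 were 0 in edgeR, and DESeq2 called neither. The 6 listed pseudogenes of S100A11 had 0 counts, although their sequence is close to that of the parent gene and the authors' counting may have assigned shared reads to it.

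Annexins bind membranes in the presence of calcium and are the partners of several S100 proteins. Of 13 annexin genes, 12 were tested, 4 fell and 1 rose (41.7% called, against 22.1% of all genes tested), with a median log2 fold change of -0.01. ANXA2, the partner of S100A10, was at 1869, 1859 and 1989 CPM with control-siRNA and at 1370, 1430 and 1439 CPM with TAZ-siRNA. All TAZ-siRNA libraries were below all control libraries. ANXA2 fell by 0.43 on the log2 scale (SE 0.060, edgeR adjusted p = 9.0e-04), and the call held without any single library, while the fold change of its partner S100A10 was positive and did not pass the test.

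ANXA1, the partner of S100A11, was at 921, 965 and 1003 CPM with control-siRNA and at 867, 783 and 1122 CPM with TAZ-siRNA. The TAZ-siRNA libraries lay on both sides of the control libraries, and the log2 fold change was -0.06 (edgeR adjusted p = 0.751), with the opposite sign under both length offsets. Without TAZ-siRNA replicate 3 it was -0.22 and ANXA1 was called lower (edgeR adjusted p = 0.0091), and without TAZ-siRNA replicate 2 it was 0.05. The other annexins that fell were ANXA8 (log2 fold change -1.03), its near-identical copy ANXA8L1 (-0.90), whose counts may not be separable from it, and ANXA3 (-0.29). ANXA10 rose, with a log2 fold change of 0.79 from 30 to 74 counts per library (edgeR adjusted p = 0.0433), a call that did not hold in any of the 6 fits that left out 1 library.

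Of 19 binding partners and receptors of S100 proteins, 15 were tested, 2 rose and 1 fell (20.0% called, against 22.1% of all genes tested), with a median log2 fold change of -0.02. Without TAZ-siRNA replicate 3 the count was 9, in a fit that called 33.7% of all genes. FGF1, a growth factor released with S100A13, had 57, 49 and 30 counts with control-siRNA and 15, 14 and 16 counts with TAZ-siRNA. It fell by 1.56 on the log2 scale (SE 0.286, edgeR adjusted p = 0.0039), with no overlap of the groups. PLAUR, the urokinase receptor, was at 109, 103 and 118 CPM and at 143, 144 and 152 CPM, and rose with a log2 fold change of 0.42 (edgeR adjusted p = 7.8e-04). TLR4, a receptor for secreted S100 proteins, rose with a log2 fold change of 0.29 (edgeR adjusted p = 0.0067), a call lost in limma's fits on log2(FPKM + 1) (adjusted p = 0.0785) and log2(TPM + 1) (adjusted p = 0.0767).

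AHNAK, MYH9 and CACYBP, intracellular partners other than annexins, did not pass the test. AHNAK, a giant scaffold that binds the complex of S100A10 with annexin A2, was at 1427, 1391 and 1274 CPM with control-siRNA and at 1711, 1826 and 1248 CPM with TAZ-siRNA. TAZ-siRNA replicate 3 was below all control libraries and the other two were above them (log2 fold change 0.23, edgeR adjusted p = 0.232). Without that replicate the log2 fold change was 0.38 and AHNAK was called higher (edgeR adjusted p = 1.4e-04). MYH9, the heavy chain of nonmuscle myosin IIA that S100A4 binds, had a log2 fold change of -0.02 (edgeR adjusted p = 0.897), which was 0.08 without the same replicate. CACYBP, the partner of S100A6, had a log2 fold change of -0.05 (edgeR adjusted p = 0.625), and of -0.13 without TAZ-siRNA replicate 3, where it was called lower (edgeR adjusted p = 0.0370). The log2 fold changes of MYH9 and CACYBP were 0.03 in limma's fit on TPM.

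**Figure D5:**
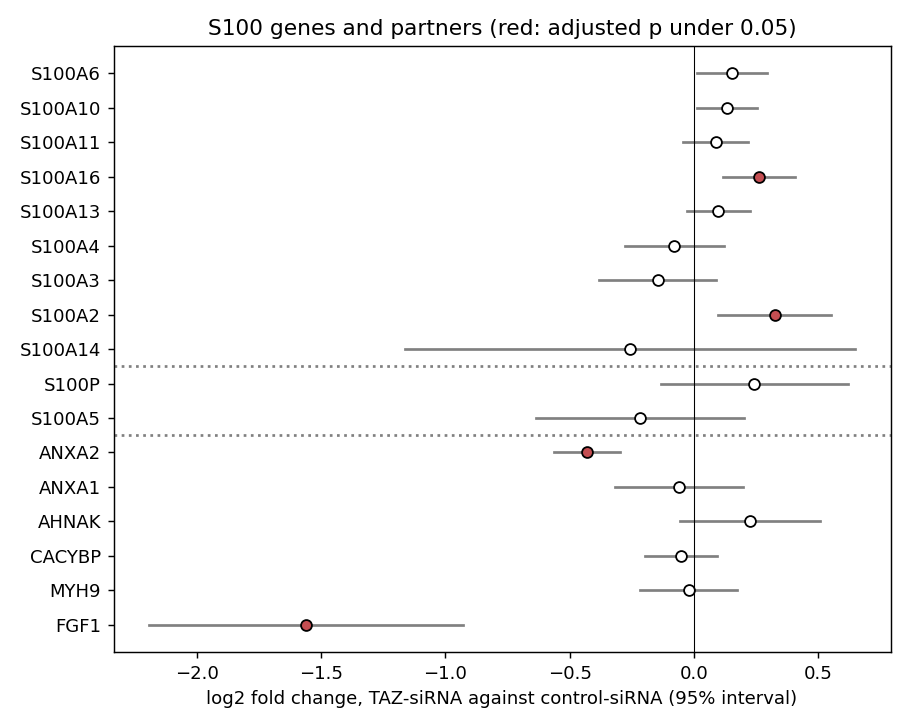
Log2 fold change with 95% interval for the 9 S100 genes in order of level, the 2 other S100 genes tested and 6 of their partners, red where the adjusted p was under 0.05. Of the called genes, S100A16 and S100A2 lie above 0, and ANXA2 and FGF1 below it. The intervals of S100A6 and S100A10, which were not called, also lie above 0.

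Other small EF-hand proteins and the genes around the S100 cluster were compared in the same fit. Of 19 calmodulins and other small EF-hand genes, 16 were tested, 3 rose and 2 fell (31.2% called, against 22.1% of all genes tested), with a median log2 fold change of 0.05. Among those that rose were CALM3 (0.29) and GCA (0.24), and those that fell were EFHD2 (-0.40), an actin-binding protein, and CAPNS1 (-0.19), the small subunit of calpain. The calls of GCA and CAPNS1 each held in 1 of 6 fits without 1 library. The count of 5 became 8 without TAZ-siRNA replicate 3, where 33.7% of all genes were called, and 2 without any other single library, where 11.2 to 15.3% were. Within 500 kb of the span of the S100 genes, 28 of 109 other genes were tested. Of these, 1 was called (3.57%, against 22.1% of all genes tested), and the median log2 fold change was -0.08. The count was 7 without TAZ-siRNA replicate 3, where 33.7% of all genes were called. It was 0 without control-siRNA replicate 1 (13.1% of all genes called) or TAZ-siRNA replicate 2 (15.3%). The gene called in the reported fit was CGN, which encodes the tight junction protein cingulin. It was at 3.19, 2.88 and 3.38 CPM with control-siRNA and at 4.58, 5.78 and 4.01 CPM with TAZ-siRNA (log2 fold change 0.60, edgeR adjusted p = 0.0157). CGN was higher in all TAZ-siRNA libraries, and the call was kept in 3 of 6 fits without 1 library. In limma's fit on log2(FPKM + 1) the adjusted p was 0.0525 for CGN and 0.0800 for GCA, and with the length offset it was 0.0701 for CAPNS1 in edgeR.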

How the data were processed

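RNA was sequenced from 3 control-siRNA and 3 TAZ-siRNA preparations of MDA-MB-231 cells as paired ends of 100 bases, and libraries were assigned to groups by their labels. The reads were trimmed, aligned to GRCh38 by HISAT2 and quantified against RefSeq models by StringTie (versions not given in the sources used here). The submitters' processing notes also list Bowtie 0.12.2 and a mouse build, which the paper's methods do not use. The deposited estimated count of each gene is a whole number, derived by the authors without scaling to library size. In the deposited FPKM and TPM the authors had corrected for the length of each transcript and the size of the library. For each of the 54 pairs of S100 gene and library, the gene value equalled the sum of its transcripts within 1%. The titles number the replicates 3 to 5, and the numbers 1 to 3 of the value columns were used.

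Counts were compared with edgeR 4.0.16 (R 4.3.3), with TMM factors, filterByExpr (minimum count 10), robust quasi-likelihood fits and Benjamini-Hochberg adjustment over 16966 genes at a threshold of 0.05. The script was tested on simulated data. Library totals were 48307548 to 71749634, and 3 counts, the floor of detection, were 0.0418 to 0.0621 CPM, which covers counting error only. The biological coefficient of variation was 8.04%. Alternatives were DESeq2 1.42.0, upper-quartile factors, other filters, a replicate block, limma 3.58.1 with a pseudocount of 1 or 0.1 added to FPKM before log2, offsets for length or for GC content and length (splines with 5 degrees of freedom, values for 100% and 89.7% of genes), a threshold of 0.01 and leaving out each library. The fit on log2(TPM + 1) was chosen after seeing the data. Levels and their order, transcript values and shares, and sequence matches were described without a test.

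The text names all S100 members, the other S100 genes, the called genes of the other lists (up to 5 of each) and, whatever their result, ANXA2, ANXA1, AHNAK, CACYBP, MYH9 and FGF1. The members and lists were chosen with earlier results of these data known, so no list was tested as such. A comparison of the proteins was not run here, and a few items are not reported here.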

Additional observations from a re-analysis of the deposited data

How the results depend on the processing

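Of 142 fold changes of the 9 S100 genes under 16 alternatives, 119 kept their direction and their side of the threshold, 13 passed it newly, 8 no longer passed it and 2 changed sign, both for S100A4 (0.052 with the length offset, 0.043 with the offset for GC content and length). The number of S100 genes called was 2. It became 1 without a filter, where 12.6% of the 27490 genes tested were called, and 0 at the stricter threshold of 0.01. The share of all genes called at 0.01 was not worked out, so no list's count at that threshold has a background beside it. It became 5 with limma on log2(TPM + 1), where 15.0% of all genes were called. With either offset it became 6, where 26.0% (length) and 27.4% (GC content and length) of all genes were called. The median log2 fold change with these offsets became 0.22 (length) and 0.21 (GC content and length). Without 1 library at a time the number of S100 genes called was 0 to 2, with 0 without control-siRNA replicate 1 or 2. The replicate numbers were not known to mark shared preparations, and same-numbered samples deviated with correlations of -0.02, 0.01 and 0.07. With the replicate block, which called 30.2% of all genes against 22.1% without it, 4 S100 genes were called, S100A6 (adjusted p = 0.0239) and S100A10 (adjusted p = 0.0409) in addition, and 3 of the chromosome 1 neighbours. Of 28 neighbours tested, 1 was called in the reported fit, 2 with DESeq2 (23.8% of all genes called) and 0 on either FPKM scale (16.6% and 16.7%). Among the same 28, 4 were called with the length offset, 3 with that for GC content and length, and 0 at a threshold of 0.01. Without a filter 2 of 48 neighbours were called. With at least 10 counts in every library 2 of 24 were called, where 24.6% of all genes were. Without 1 library the count was 0 to 7 of 28 to 30 neighbours tested. Partners and receptors called were 3 to 9 without 1 library. Small EF-hand genes called were 5, 2 at a threshold of 0.01, and 2 to 8 without 1 library. In each of these last 3 lists the highest count was without TAZ-siRNA replicate 3, where calls over all genes were 5928 instead of 3749, and 1937 without control-siRNA replicate 2. Changes of sign outside the S100 genes were of ANXA1 (0.0065 and 0.040 with the offsets, -0.22 to 0.049 without 1 library, positive without TAZ-siRNA replicate 2), CACYBP (0.029 on TPM, -0.13 to 0.012, positive without TAZ-siRNA replicate 2) and MYH9 (0.027 on TPM, -0.11 to 0.078, positive without TAZ-siRNA replicate 3), none of them called in the reported fit. The cause of these differences was not tested. DESeq2 gave no adjusted p for S100A14, whose 7 to 15 counts per library limit what can be detected.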
